A study of Mus musculus with 7 samples.

Results

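The release of antimicrobial granules depends on a small set of proteins, and the genes examined here encode 10 of them: Rab3d, Rab26, Rab27a, Rab27b, Vamp8, Stx3, Stxbp2, Snap23, Sytl1 and Scin. They were chosen by name as a group of granule exocytosis genes, and all 10 were found among the 55414 gene identifiers of the count table. Bulk RNA was sequenced from purified Paneth cells (PCs) of C57BL/6J mice. The mice had received either phosphate-buffered saline (PBS, the control, 3 libraries) or the cytokine tumour necrosis factor (TNF, 4 libraries), and the small intestine was taken 15 h later. Each library came from a different mouse. No genetic change is named in the labels. Age, sex, the injected dose and the markers used for sorting were not given in the sources used here, and the cells were exposed to TNF within the whole animal.

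PCs sit at the bottom of the crypts of the small intestine and store α-defensins, lysozyme and other antimicrobial proteins in large granules that are released at the apical surface. In exocytosis in general, Rab GTPases on the granule membrane (Rab3d, Rab26, Rab27a, Rab27b) recruit effectors such as synaptotagmin-like proteins (Sytl1), which tether the granule to the plasma membrane. Fusion follows when a SNARE of the granule (Vamp8) forms a complex with SNAREs of the plasma membrane (Stx3 and Snap23), a step assisted by a Munc18 protein (Stxbp2). The cortical actin layer that granules have to cross is cut by calcium-dependent severing proteins of the gelsolin family, of which Scin (scinderin, also called adseverin) is a member.

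All libraries held between 15511455 and 19193721 counts. The identity of the sorted cells was checked with 8 PC marker genes (Lyz1, Defa24, Mmp7, Ang4, Itln1, Clps, Habp2 and Nupr1). Their summed level was between 165000 and 265000 counts per 1e+06 counts of the library (CPM) after PBS and between 159000 and 286000 CPM after TNF. Of these 8 markers, 2 were higher (Nupr1 by 2.49 and Mmp7 by 0.88 on the log2 scale, where 29.5% of all tested genes were higher), 2 lower (Clps at -2.27 and Habp2 at -1.26, where 30.1% were lower) and 4 not called after TNF. The sum rests mostly on Lyz1 and Defa24, which were among those not called. Because these are bulk samples, fewer cells of a type and less RNA per cell cannot be told apart in any of the values that follow.

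Stx3, Vamp8 and Snap23 rose, Rab27b and Sytl1 fell, and the actin-severing gene Scin fell to near zero. At an adjusted p under 0.05 in edgeR, 3 of the 10 genes were higher after TNF (Stx3, Vamp8, Snap23), where 29.5% of all 14329 tested genes were, and 3 were lower (Scin, Sytl1, Rab27b), where 30.1% of all tested genes were. The other 4 (Rab3d, Rab26, Rab27a, Stxbp2) were not called. In both directions together, 6 of 10 is close to the 59.6% called among all tested genes, which is no more often than in the rest of the transcriptome. The median log2 fold change of the 10 genes was -0.07, beside 0.0017 over all tested genes. When at least a 2-fold change was also required, Snap23 dropped out, leaving 2 genes higher (14.4% of all tested genes), 3 lower (17.2%) and 5 in either direction (31.6%). The CPM values of the groups did not overlap for 8 of the 10 genes, where this was so for 60.7% of all tested genes. Of these 8, 4 were higher (29.9% of all tested genes) and 4 lower (30.9%) after TNF.

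**Figure D1:**
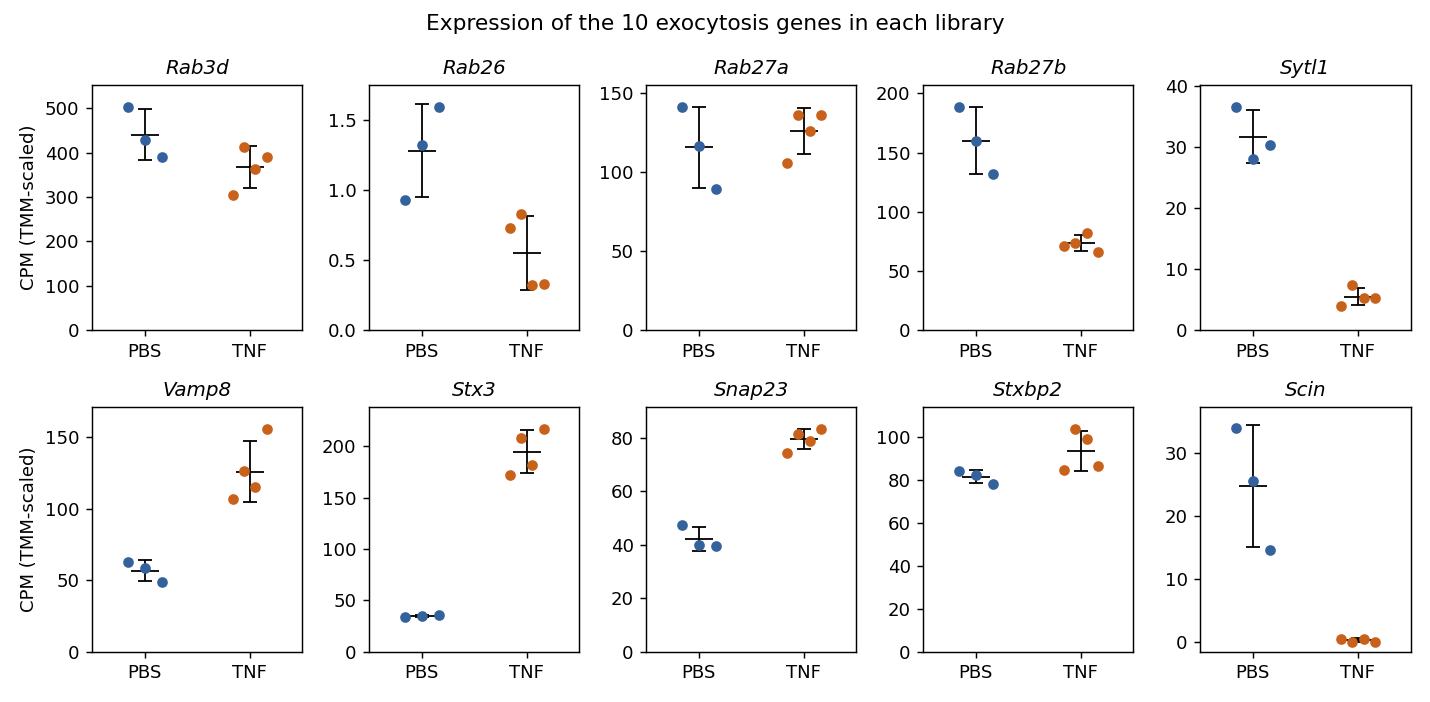
Level of each exocytosis gene in CPM (vertical axes, linear, with a scale of their own) in the 3 PBS (blue) and 4 TNF (orange) libraries. Points are libraries, and bars are the mean with 1 SD. Vamp8, Stx3 and Snap23 are higher, and Rab27b, Sytl1 and Scin lower, in every TNF library than in any PBS library.

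**Figure D2:**
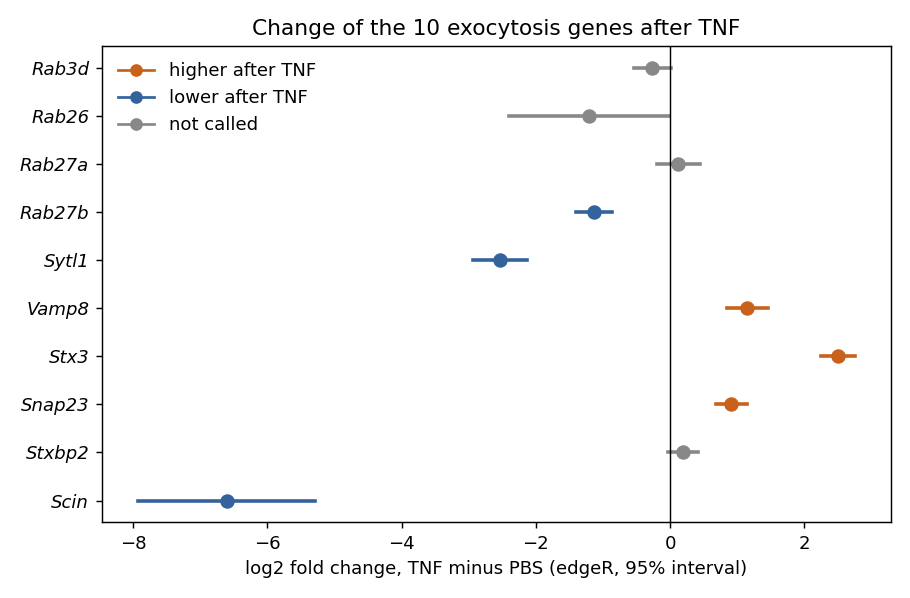
Log2 fold change of each gene, TNF minus PBS, from edgeR (horizontal axis) with its 95% interval. Orange marks genes called higher, blue genes called lower and grey genes not called at an adjusted p under 0.05. Scin lies at -6.61 and Stx3 at 2.50, and the intervals of Scin and Rab26 are the widest.

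The sequences just upstream of the 3 genes with the largest log2 fold changes are shown so that their promoters can be seen beside the values. RefSeq promoter windows of the GRCm38.p6 build were available for 8 of the 10 genes. Those of Rab26 and Rab27b were not analysed here. Each sequence is the 250 bases that end just before the annotated start, written 5′ to 3′ on the strand of the gene. Capitals mark E-box motifs (CANNTG), which are bound by basic helix-loop-helix factors. The windows lie on the minus strand, at chr19:11819404-11819653 for Stx3, chr4:133263088-133263337 for Sytl1 and chr12:40134229-40134478 for Scin.
Stx3: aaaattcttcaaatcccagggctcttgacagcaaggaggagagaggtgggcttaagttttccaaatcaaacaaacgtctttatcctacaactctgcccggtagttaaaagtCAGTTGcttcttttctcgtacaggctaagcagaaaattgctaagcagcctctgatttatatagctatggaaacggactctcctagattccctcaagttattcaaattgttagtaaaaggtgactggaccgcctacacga
Sytl1: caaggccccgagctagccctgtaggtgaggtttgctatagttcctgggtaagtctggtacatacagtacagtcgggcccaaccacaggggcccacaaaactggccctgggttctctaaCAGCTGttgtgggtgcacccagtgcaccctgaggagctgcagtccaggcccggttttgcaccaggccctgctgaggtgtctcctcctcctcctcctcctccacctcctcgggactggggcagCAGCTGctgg
Scin: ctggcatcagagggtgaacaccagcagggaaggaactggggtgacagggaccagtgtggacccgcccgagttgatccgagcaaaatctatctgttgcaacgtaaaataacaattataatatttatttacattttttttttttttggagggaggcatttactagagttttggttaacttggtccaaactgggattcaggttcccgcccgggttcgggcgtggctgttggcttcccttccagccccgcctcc

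The Sytl1 window held 2 E-boxes, both CAGCTG, starting 132 and 10 bases before the start. CAGCTG, which is 1 form of CANNTG, occurs in 13% of the 32851 windows of this length in the RefSeq table, and CANNTG in 66.2%. The Stx3 window held 1 E-box, 139 bases before the start, and the Scin window held 0. Across the 9 windows of the 8 genes (Rab27a has 2), CANNTG was found for 4 genes. The NF-kB consensus, which is the usual DNA motif of TNF signalling and occurs in 3.9% of all windows, was found in 0 of the 9 windows. Both strands were searched, and these matches describe letters in a short window only.

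Among the Rab GTPases of the granule, Rab3d (ENSMUSG00000019066, GRCm39 chromosome 9, 21818510 to 21829622, minus strand), the Rab3 form typical of exocrine granules, had 502, 428 and 391 CPM in the PBS libraries and 304, 412, 362 and 391 CPM in the TNF libraries. The groups overlapped, with TNF replicate 1 below all other libraries. The log2 fold change was -0.26 ± 0.13 (SE), with a 95% interval of -0.54 to 0.02, and was not called (edgeR adjusted p = 0.0977). The call depended on the scaling and on a library, since Rab3d was lower when libraries were scaled by total counts only (-0.42, adjusted p = 0.00143) and without PBS replicate 3 (-0.35, adjusted p = 0.0418).

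Rab26 (ENSMUSG00000079657, chromosome 17, 24746215 to 24753184, minus strand), another Rab of exocrine granules, was barely expressed. It had 15, 26 and 30 counts in the PBS libraries (0.927, 1.32 and 1.59 CPM) and 13, 14, 6 and 5 counts in the TNF libraries (0.728, 0.825, 0.321 and 0.327 CPM). Every TNF library was below every PBS library, but the log2 fold change of -1.21 ± 0.55 (SE) did not pass the threshold (edgeR adjusted p = 0.074), with an unadjusted 95% interval of -2.40 to -0.02. At 71 counts after PBS and 38 after TNF, the size of this difference is poorly determined. Rab26 also shares 507 annotated exonic bases with Traf7 on the same strand, which had 48.6 CPM after PBS and 59.7 CPM after TNF, so the few counts of Rab26 are uncertain.

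The paralogs Rab27a and Rab27b, which dock secretory granules at the plasma membrane, moved apart. Rab27b (ENSMUSG00000024511, chromosome 18, 70112202 to 70274903, minus strand) had 188, 160.2 and 132 CPM after PBS and 70.6, 73.7, 82.1 and 66.1 CPM after TNF. The groups were far apart, and the log2 fold change was -1.13 ± 0.12 (SE, edgeR adjusted p = 3.58e-06), a 2.19-fold fall. Rab27a (ENSMUSG00000032202, chromosome 9, 72952124 to 73004911, plus strand) had 141, 116.5 and 89.6 CPM after PBS and 106, 136.5, 126 and 136 CPM after TNF. These ranges overlapped, the log2 fold change was 0.13 ± 0.15 (SE, edgeR adjusted p = 0.477), and its 95% interval of -0.19 to 0.44 leaves out a change of the size seen for Rab27b. Its sign turned with scaling by total counts only (-0.023) and without PBS replicate 3 (-0.034).

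A ratio of both genes within each library does not depend on how libraries are scaled. The log2 ratio of Rab27b to Rab27a counts averaged 0.48 ± 0.07 in the PBS libraries (n = 3, SD) and -0.78 ± 0.22 in the TNF libraries (n = 4, SD), which differ by -1.26. There were between 1.33 and 1.47 Rab27b counts for each Rab27a count in the PBS libraries, and between 0.485 and 0.667 in the TNF libraries. The ratio was lower in 4 of 4 TNF libraries than in any PBS library. Counts were not divided by transcript length here, and per kb of the canonical transcript (7196 bases for Rab27b and 2994 for Rab27a) the level of Rab27a was above that of Rab27b in both groups. The exact two-sided permutation test gave p = 0.0286, the smallest that 35 splits of 7 libraries allow, and 0.0381 after adjustment over the 4 ratios that were tested. The ratio of Rab26 to Rab3d counts did not pass the test, with a log2 difference of -0.998 (exact permutation p = 0.171, adjusted p = 0.171).

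Sytl1 (ENSMUSG00000028860, chromosome 4, 132980401 to 132992762, minus strand) encodes a synaptotagmin-like protein that binds Rab27 and membrane lipids. It had 36.5, 28.1 and 30.3 CPM after PBS and 3.97, 7.31, 5.30 and 5.24 CPM after TNF. All TNF libraries were far below the lowest PBS library. The log2 fold change was -2.53 ± 0.19 (SE, edgeR adjusted p = 8.79e-08), a 5.79-fold fall.

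Further effectors and regulators of Rab3 and Rab27 changed in both directions. Of 23 such genes, 19 were tested, 4 were higher and 9 lower (over all tested genes, 29.5% were higher and 30.1% lower), with a median log2 fold change of -0.41. The falls that stood out by size were those of Sytl5 (from 11.4 to 2.00 CPM, -2.50 ± 0.25 on the log2 scale, edgeR adjusted p = 1.48e-06), Myrip (70.3 to 16.6 CPM, -2.09 ± 0.16, 1.61e-07) and Rph3al (53.7 to 15.2 CPM, -1.83 ± 0.16, 5.58e-07). Myrip links Rab27 to myosin, and Rph3al (Noc2) is a Rab effector of endocrine and exocrine granules. Other Rab27 effectors, picked out after their values were seen, were Mlph (297 to 128 CPM, log2 fold change -1.21), Sytl4 (12.8 to 4.59 CPM, -1.48) and Exph5 (98 to 65.3 CPM, -0.59), all lower at an edgeR adjusted p of at most 0.000523. Sytl2 was the exception among them, with 332 CPM after PBS and 389.8 CPM after TNF (log2 fold change 0.23 ± 0.11, adjusted p = 0.0836).

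Regulators in this list also went both ways, and some of them do not act on Rab3 or Rab27 alone. Rabgef1 (1.85 ± 0.13, edgeR adjusted p = 3.66e-08) encodes an exchange factor for the endosomal Rab5, Tbc1d10a (1.45 ± 0.16, 4.03e-06) a GTPase-activating protein that acts on Rab27 and Rab35, and Gdi2 (0.73 ± 0.11, 5.26e-05) a Rab chaperone of broad specificity. The fourth was Tbc1d10b, named after its value was seen, at 0.29 ± 0.11 (edgeR adjusted p = 0.036), whose call was lost with total counts only (0.13, adjusted p = 0.509) and without any single library other than PBS replicate 2 or TNF replicate 4 (0.23 to 0.28, adjusted p up to 0.135). Other genes named in the same way are Rab3gap2, part of the Rab3 GTPase-activating complex (-1.19, edgeR adjusted p = 6.69e-07), and the Rab exchange factor genes Madd (-0.59, 0.000261) and Rab3ip (-0.41, 0.00793), which fell. The call of Rab3ip was lost without PBS replicate 2 (-0.31, adjusted p = 0.0663).

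The 3 SNARE genes of the group rose. Stx3 (ENSMUSG00000041488, chromosome 19, 11752463 to 11796767, minus strand), the syntaxin of the apical plasma membrane in epithelia, had 33.3, 34.5 and 35.5 CPM after PBS and 172, 208, 182 and 217 CPM after TNF. The PBS libraries were nearly identical and each TNF library was far above them. The log2 fold change was 2.50 ± 0.12 (SE, edgeR adjusted p = 1.05e-09), a 5.65-fold rise with a 95% interval of 4.75 to 6.73.

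Vamp8 (ENSMUSG00000050732, chromosome 6, 72359012 to 72368482, minus strand), the granule SNARE of exocrine cells, had 62.7, 58.4 and 48.5 CPM after PBS and 106, 126, 115 and 156 CPM after TNF. Its log2 fold change was 1.15 ± 0.14 (SE, edgeR adjusted p = 8.68e-06), and the groups did not overlap. Snap23 (ENSMUSG00000027287, chromosome 2, 120397782 to 120433531, plus strand), a plasma membrane SNARE found in most cell types, had 47.5, 40.0 and 39.5 CPM after PBS and 74.6, 81.5, 79 and 83.4 CPM after TNF. Its log2 fold change was 0.91 ± 0.11 (SE, edgeR adjusted p = 5.88e-06), a rise of 1.88-fold.

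Annotated neighbours overlap some of these genes, and the use of strand in counting is not given in the sources used here. Snap23 shares 2179 exonic bases with Lrrc57 on the opposite strand, which also rose, from 5.87 to 11.8 CPM (1.01 ± 0.21 on the log2 scale, edgeR adjusted p = 0.000843), and the part of shared bases in either value was not tested. Stx3 shares 1376 exonic bases with Mrpl16 on the opposite strand, which had 9.22 and 10.4 CPM and was not called (0.17 ± 0.18, adjusted p = 0.444).

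Stxbp2 (ENSMUSG00000004626, chromosome 8, 3680932 to 3694003, plus strand) encodes Munc18-2, the binding partner of Stx3. It had 83.9, 82.4 and 78.1 CPM after PBS and 84.5, 104, 99 and 86.6 CPM after TNF. The TNF libraries all lay above the PBS libraries, 1 of them by a small margin, but the log2 fold change of 0.20 ± 0.10 (SE) was not called (edgeR adjusted p = 0.117), with a 95% interval of -0.03 to 0.42. This difference depended on the scaling, since the log2 fold change was 0.036 with total counts only (edgeR adjusted p = 0.843). The ratio of Stx3 to Stxbp2 counts within a library therefore moved with Stx3. The mean log2 ratio rose from -1.24 ± 0.10 with PBS (n = 3, SD) to 1.06 ± 0.19 with TNF (n = 4, SD), by 2.30 (exact permutation p = 0.0286, adjusted p = 0.0381). In linear terms, there were between 0.397 and 0.455 Stx3 counts per Stxbp2 count after PBS and between 1.84 and 2.5 after TNF.

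**Figure D3:**
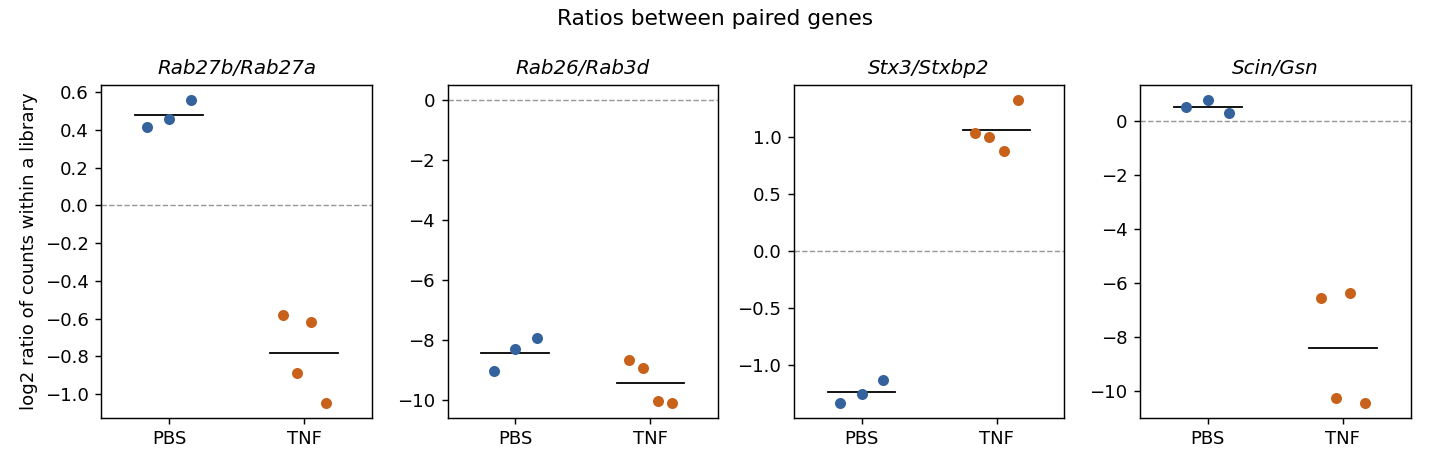
Log2 ratio of the counts of paired genes within each library (vertical axes, with a scale of their own) for 3 PBS (blue) and 4 TNF (orange) libraries. Points are libraries, black lines are group means, and the dashed line marks equal counts. Rab27b/Rab27a and Scin/Gsn turn from above to below 0 and Stx3/Stxbp2 from below to above 0, while the Rab26/Rab3d values of the groups overlap.

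The wider SNARE list changed in both directions too. Of 27 matched genes encoding other SNAREs and their partners, 23 were tested, 11 were higher and 4 lower, beside 29.5% and 30.1% of all tested genes, with a median log2 fold change of 0.16. Stx11, a syntaxin known for granule release by cytotoxic lymphocytes, had 0.372 ± 0.374 CPM in the PBS group (n = 3, SD) and 12.8 ± 3.19 CPM in the TNF group (n = 4, SD). Its log2 fold change was 5.15 ± 0.45 (edgeR adjusted p = 5.51e-07), and 6.29 without PBS replicate 1. The endosomal syntaxin gene Stx12 rose from 52.5 to 116 CPM (1.15 ± 0.10, edgeR adjusted p = 3.07e-07). The other vesicle SNARE genes Vamp2 and Vamp3, named after their values were seen, rose by 0.83 and 1.08 on the log2 scale (adjusted p = 7.98e-06 and 1.39e-06). The falls were those of Snap47 (-1.83 ± 0.18, adjusted p = 9.56e-07), Vamp1 (-0.85 ± 0.32, adjusted p = 0.0411), Vamp4 (-0.39 ± 0.15, adjusted p = 0.039) and Stxbp4. The call of Vamp1 was lost without any single PBS library and without TNF replicate 3 or 4 (-0.94 to -0.68, adjusted p up to 0.116). That of Vamp4 was lost without PBS replicate 2 or 3 and without TNF replicate 2 or 3 (-0.38 to -0.33, adjusted p up to 0.144).

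Leukocytes use several of the same genes for their own granules, so their markers were examined. Of 12 leukocyte and mast cell markers, 4 passed the filter on low counts, of which 1 was higher and 1 lower (29.5% and 30.1% of all tested genes). The higher gene was S100a9, an abundant granulocyte gene, which had 0 counts in all PBS libraries and between 3.21 and 7.85 CPM in the TNF libraries (edgeR adjusted p = 1.14e-06), and S100a8 also had 0 counts after PBS. The lower gene was Ptprc, the pan-leukocyte CD45 gene, with 11.4, 26.2 and 11.6 CPM after PBS and 7.28, 6.25, 12.7 and 7.72 CPM after TNF (log2 fold change -0.95 ± 0.33, edgeR adjusted p = 0.027). Its groups overlapped, and the call was lost without PBS replicate 2 (-0.43, adjusted p = 0.211) and without TNF replicate 1, 2 or 4 (adjusted p up to 0.0926). Cd3e and the mast cell genes Cpa3 and Mcpt1 had 0 counts in every library. The summed level of the list was between 13 and 28.1 CPM after PBS and between 17.6 and 20.4 CPM after TNF, and the part of these cells in the rises of Stx3, Vamp8 and Snap23 was not tested.

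Scin (ENSMUSG00000002565, chromosome 12, 40109755 to 40184227, minus strand) had the largest fold change of the 10 genes. It had 33.9, 25.5 and 14.6 CPM after PBS and 0.448, 0, 0.482 and 0 CPM after TNF. Its 1324 counts in the PBS libraries stood against 17 in the TNF libraries, 8 in replicate 1 and 9 in replicate 3. Relative to the summed TMM-scaled library sizes of each group, the pooled counts were 97.9-fold lower after TNF, with a 95% exact binomial interval of 60.9 to 169 that covers counting error only. The fitted log2 fold change was -6.61 ± 0.59 (SE, edgeR adjusted p = 7.29e-06), and -7.22 without TNF replicate 3. Scin stood at percentile 0.216 of the log2 fold changes of all tested genes. The PBS libraries differed among themselves by more than 2-fold, yet the lowest of them was far above any TNF library.

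The other 7 genes of the gelsolin family were all called, in both directions, where 59.6% of all tested genes were called. The call of Avil was lost with no filter on low counts (adjusted p = 0.0595). Vill (11.7 to 68 CPM, 2.53 ± 0.20 on the log2 scale, edgeR adjusted p = 2.98e-07), Capg (2.32 to 10.8 CPM, 2.23 ± 0.27, 7.3e-06), Gsn (16.6 to 42 CPM, 1.35 ± 0.20, 7.49e-05) and Flii rose. Avil (283.9 to 114 CPM, -1.32 ± 0.34, adjusted p = 0.0111), Vil1 (605 to 273 CPM, -1.15 ± 0.12, 1.65e-06) and Svil (91.1 to 56.1 CPM, -0.70 ± 0.17, 0.00342) fell. Gsn encodes gelsolin itself, Vil1 the villin of brush border microvilli, and Avil the advillin that is a marker of tuft cells. The log2 ratio of Scin to Gsn counts averaged 0.55 ± 0.24 in the PBS group (n = 3, SD) and -8.41 ± 2.25 in the TNF group (n = 4, SD). The PBS libraries held between 1.24 and 1.73 Scin counts per Gsn count and the TNF libraries at most 0.0122. The log2 difference of -8.96 (exact permutation p = 0.0286, adjusted p = 0.0381) depends on the 0.5 added to each count, since 2 TNF libraries were at 0.

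Markers of other intestinal cells were examined beside these falls, with 30.1% of all tested genes lower and 29.5% higher. All 10 tuft cell markers were lower after TNF, and their summed level was between 1480 and 2430 CPM after PBS and between 289 and 729 CPM after TNF. Of 9 goblet cell markers, 5 were lower and 1 higher, with sums between 11600 and 21200 CPM after PBS and between 9720 and 11200 CPM after TNF. Muc2, Agr2 and Spink4 were the goblet cell genes not called, and Ccl9 was higher (log2 fold change 0.99, edgeR adjusted p = 0.0108). Of 11 tested enteroendocrine markers, 5 were lower and 1 higher, with sums between 40.1 and 105 CPM after PBS and between 46.3 and 74.7 CPM after TNF, which overlapped. The higher gene was Tac1, with 1.71 CPM after PBS and 41.1 CPM after TNF (log2 fold change 4.61, edgeR adjusted p = 6.93e-05). The enteroendocrine sums after TNF rest mostly on Tac1. It had 38.8, 35.6, 32.5 and 57.6 CPM in the TNF libraries, where the sums were 64.2, 46.3, 53.1 and 74.7 CPM. Of 8 stem cell markers, 7 were lower, with sums of 3830 to 5160 CPM after PBS and 2040 to 2790 CPM after TNF. Of 8 tested enterocyte markers, 6 were lower and 1 higher, with sums of 432 to 588 CPM and 109 to 132 CPM. None of the markers in these 5 lists was at 0 in a whole group, and their part in the falls of Scin, Sytl1 and Rab27b was not tested.

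Bhlha15, which encodes the transcription factor Mist1 of exocrine secretory cells, was examined because Mist1 is known to drive Rab3d and Rab26 in other exocrine tissue. It had 320.4 ± 17.8 CPM in the PBS group (n = 3, SD) and 11.6 ± 1.71 CPM in the TNF group (n = 4, SD). This fall was 27.6-fold (log2 fold change -4.79 ± 0.13, edgeR adjusted p = 1.68e-11). Beside this fall stand the values above for Rab3d and Rab26, neither of which was called. Any relation between them was not tested.

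Levels were compared between genes after division by the length of the canonical transcript. After PBS, Rab3d had the highest level, 113 ± 14.6 CPM per kb (n = 3, SD), followed by Vamp8 (69 ± 8.93), Rab27a (38.7 ± 8.61), Stxbp2 (28 ± 1.05), Rab27b (22.3 ± 3.92), Sytl1 (16 ± 2.21), Stx3 (13.2 ± 0.414), Snap23 (8.9 ± 0.949), Scin (8.19 ± 3.22) and Rab26 (0.813 ± 0.212). The ranges of Rab27b and Sytl1 overlapped, as did those of Snap23 and Scin. After TNF, Vamp8 came first with 153 ± 26.2 CPM per kb (n = 4, SD), above Rab3d (94.5 ± 12.1) and Stx3 (74.6 ± 8.07), whose ranges overlapped. Rab27a (42.2 ± 4.82) and Stxbp2 (32.1 ± 3.23) also overlapped, and Snap23 (16.7 ± 0.801), Rab27b (10.2 ± 0.94), Sytl1 (2.76 ± 0.699), Rab26 (0.349 ± 0.168) and Scin (0.0772 ± 0.0892) followed. Stx3 therefore moved from place 7 to place 3 of 10 and Scin from place 9 to place 10. The places depend on the length used: with the union of all annotated exons, which is 13515 bases for Stx3 instead of 2612, Stx3 moved from place 9 to place 5 and Rab3d stayed first.

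The remaining steps of exocytosis changed in both directions. Over the 7 pathway lists, 105 of 130 genes were tested, of which 37 (35.2%) were higher and 36 (34.3%) lower, beside 29.5% and 30.1% of all tested genes, and no difference from these shares was tested. Among other Rabs of secretory traffic, 7 of 17 tested genes were higher and 2 lower, beside the same shares of all tested genes (29.5% and 30.1%), with a median log2 fold change of 0.33. Rab32, a Rab of lysosome-related organelles, rose from 2.18 to 22.3 CPM (3.34 ± 0.18, edgeR adjusted p = 4.45e-09), Rab8b from 11.4 to 40.6 CPM (1.83 ± 0.14, 1.41e-07) and the recycling endosome effector Rab11fip1 from 131 to 331 CPM (1.34 ± 0.10, 6.88e-08). The falls were those of the low-expressed Rab3a and Rab6b.

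**Figure D4:**
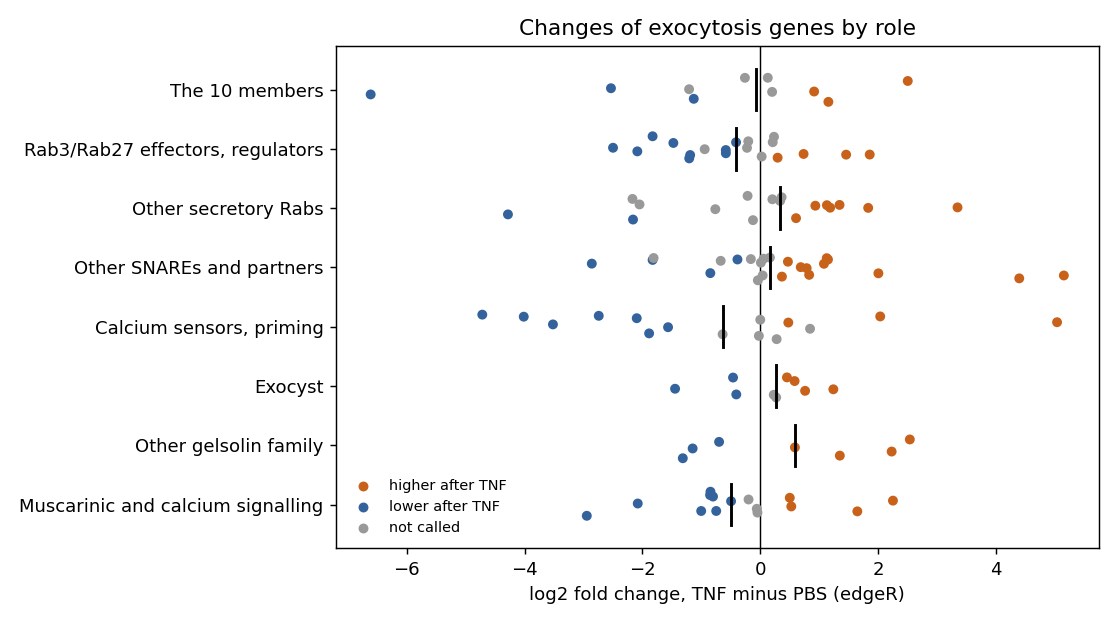
Log2 fold change, TNF minus PBS, from edgeR (horizontal axis) of each tested gene in the 10-gene group and in 7 lists of the exocytosis pathway (rows, with points spread vertically for legibility). Orange points were called higher, blue points lower and grey points not called, and black bars are medians. Calcium sensors have a median of -0.64 and the other gelsolin family genes of 0.59.

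Calcium sensors and priming factors had 3 genes higher and 7 lower of 15 tested (29.5% and 30.1% of all tested genes), with a median of -0.64. Among those with at least 5 CPM, the synaptotagmin gene Syt13 (12 to 1.78 CPM, -2.74 ± 0.26, edgeR adjusted p = 8.37e-07) and the complexin gene Cplx2 (19.9 to 6.70 CPM, -1.57 ± 0.24, 8.79e-05) fell, and Syt7, a calcium sensor of slow secretion, rose from 84 to 117 CPM (0.47 ± 0.13, 0.00583). The exocyst, the complex that tethers vesicles to the plasma membrane, went both ways. Exoc5 (1.24 ± 0.10, adjusted p = 1.17e-07), Exoc6 (0.76 ± 0.11, 4.82e-05), Exoc6b (0.58 ± 0.11, 0.000512) and Exoc1 rose, and Exoc8 (-1.45 ± 0.17, 7.74e-06), Exoc3 (-0.46 ± 0.11, 0.00289) and Exoc7 (-0.41 ± 0.12, 0.01) fell. The call of Exoc1 was lost with total counts only (0.28, adjusted p = 0.269) and without PBS replicate 1 (0.35, adjusted p = 0.0633). These are 4 higher and 3 lower of 9 genes tested, beside 29.5% and 30.1% of all tested genes.

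The last list covered muscarinic and calcium signalling, through which acetylcholine triggers PC degranulation. Of 15 genes, 4 were higher and 8 lower (29.5% and 30.1% of all tested genes), with a median of -0.50. The phospholipase gene Plcb2 (153 to 19.8 CPM, -2.94 ± 0.47, edgeR adjusted p = 0.0017), the calcium release channel gene Itpr2 (235 to 55.6 CPM, -2.08 ± 0.20, 3.27e-06) and Plcb1 (70.4 to 35.1 CPM, -1.004 ± 0.13, 1.56e-05) fell. The muscarinic receptor gene Chrm3, its G protein Gnaq and the potassium channel gene Kcnn4, named after their values were seen, fell by 0.85, 0.80 and 0.85 on the log2 scale (edgeR adjusted p at most 0.000279). Chrm1 (0.52 ± 0.13, adjusted p = 0.0038), the calcium entry channel gene Orai1 (1.64 ± 0.17, 1.65e-06) and the chloride channel gene Ano1 (2.25 ± 0.29, 1.27e-05) rose. Plcb2 and Avil are also expressed by tuft cells, whose markers fell as given above.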

How the data were processed

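RNA of sorted Paneth cells was read from a single end (Element AVITI). The authors deposited raw counts, whole numbers of reads per Ensembl gene with 1 column per library. The submitters' processing notes name FastQC, Trimmomatic 0.39, STAR 2.7.10a and DESeq2 and the builds mm10 and mm39, without roles. The counting program, annotation and strand setting were not given in the sources used here. Symbols and places come from GENCODE M39 (GRCm39), and 54749 of 55414 identifiers matched. Vamp7 was not matched.

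Libraries were scaled with the TMM method, genes filtered with filterByExpr, and TNF and PBS compared over all 7 libraries with the robust quasi-likelihood test of edgeR 4.0.16 in R 4.3.3 (two-sided, Benjamini-Hochberg over 14329 genes, adjusted p under 0.05). CPM are TMM-scaled. SE and 95% intervals come from the fitted change and its F statistic. DESeq2 1.42.0 served as an alternative. Ratios used counts plus 0.5 and an exact permutation test. Total counts were 15511455 to 19193721 per library. The interval of the pooled count ratio of Scin covers counting error only, while those of edgeR also hold the spread between libraries.

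All 10 genes are named. From each pathway list, up to 3 called genes with the largest rise and 3 with the largest fall were named, at a mean of at least 5 CPM. Other genes were named after their values were seen. A gene that the rule names is not reported here. Genes and lists were chosen with earlier results of these data known. The replicate numbers did not pair the libraries. Libraries are said to come from separate mice, and no batch is given. The alternatives were other scalings, filters and tests, a 2-fold limit, a block for replicate number and leaving out each library.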

Additional observations from a re-analysis of the deposited data

How the results depend on the processing

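The 6 calls among the 10 genes kept their direction and their side of the threshold under all 14 alternatives in which each was fitted, with log2 fold changes from 2.32 to 2.55 for Stx3, 0.99 to 1.24 for Vamp8, 0.75 to 1.01 for Snap23, -1.27 to -0.99 for Rab27b, -2.70 to -2.41 for Sytl1 and -7.22 to -6.21 for Scin. Of the genes not called, Rab26 stayed so in 13 alternatives (adjusted p of 0.0567 to 0.262) and was removed by the filter of 1 CPM in 3 libraries, and Stxbp2 in 14 (0.0563 to 0.843). Rab3d passed with total counts only (-0.42) and without PBS replicate 3 (-0.35), and Rab27a turned to -0.023 and -0.034 there, with values from -0.034 to 0.296 when a library was left out. DESeq2 size factors left 7 of 8 genes without overlap. Scaling by total counts shifted the median over all genes to -0.163 from 0.0017 (log2), and called 3142 genes higher and 4614 lower, beside 4229 and 4314. Requiring a 2-fold change removed Snap23 and left 21 of 37 higher and 23 of 36 lower genes in the pathway lists, which follows from the stricter rule. The replicate numbers did not pair the libraries: same-numbered PBS and TNF libraries had correlations of -0.398, -0.0473 and -0.227 between their deviations from the group means. No library correlated best with its own number. With the replicate block, 3 of the 10 genes were higher and 3 lower as before, and 3553 and 3578 of all genes. Of the called list and marker genes named, the block ended the calls of Vamp1 (-0.74), Vamp4 (-0.48), Exoc7 (-0.39), Tbc1d10b (0.33), Mmp7 (0.78) and Ptprc (-0.84), no filter on low counts those of Vamp4 (-0.39), Avil (-1.32) and Tbc1d10b (0.29), and total counts only those of Tbc1d10b (0.13) and Exoc1 (0.28). Leaving out a library changed the differences in log2 ratio to between -1.33 and -1.18 for Rab27b/Rab27a, 2.21 and 2.36 for Stx3/Stxbp2, -9.64 and -8.28 for Scin/Gsn, and -1.31 and -0.75 for Rab26/Rab3d. With 6 libraries the exact test cannot pass the threshold, so these are values without a test. Depth limits Rab26 and the size of the fall of Scin.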

Other observations

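The genes whose pattern over the 7 libraries was nearest to Stx3 and to Scin were sought among genes averaging 10 CPM or more, by the root mean square distance of log2 CPM from the PBS mean. Nearest to Stx3 were Snx10 (distance 0.0442), Ntmt1 (0.088) and Ifngr2 (0.0977), which rose by 2.55, 2.46 and 2.50 on the log2 scale in edgeR, beside 2.50 for Stx3. Because the distance includes the TNF libraries, changes of similar size follow from the way these genes were picked. Snx10 went from 25.3 to 148 CPM, Ntmt1 from 16.7 to 91.9 CPM and Ifngr2 from 52.8 to 299 CPM. Nearest to Scin were Prelp (distance 0.895), Gvin5 (ENSMUSG00000086513, 0.946) and Onecut2 (0.957), at much larger distances. Before the logarithm, 0.1 CPM was added to each value. Since Scin was at 0 in TNF replicates 2 and 4, its distances depend on this offset.

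The levels of the 10 genes also varied within groups. In the PBS group, 7 of the 10 genes (Rab3d, Rab27a, Rab27b, Vamp8, Stxbp2, Snap23 and Scin) were highest in replicate 1 and lowest in replicate 3, an order shared by 23.9% of all tested genes and by the summed PC markers (264700, 200800 and 164800 CPM). In the TNF group, 7 of the 10 genes (Rab3d, Rab27a, Vamp8, Stx3, Stxbp2, Snap23 and Sytl1) were lowest in replicate 1, as were 31.4% of all tested genes and the summed PC markers (159300 CPM, beside 227600, 197600 and 285500 CPM). Both orders depend on the scaling, since a larger TMM factor lowers every CPM value of its library. The factors were 0.931, 1.07 and 1.218 in PBS replicates 1 to 3. In TNF replicates 1 to 4 they were 1.085, 0.926, 0.974 and 0.842.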
